A study of Mus musculus with 4 samples.

Results

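The 10 genes Fos, Fosb, Jun, Junb, Atf3, Egr1, Nr4a1, Ier2, Dusp1 and Btg2 are immediate early genes, transcribed within minutes of a stimulus without new protein synthesis. They were taken by symbol from a table of 51098 genes measured by RNA sequencing in whole mouse embryonic stomach, stage E15.5 (days of gestation), and each symbol matched 1 row. They were selected on their CPM levels in 2 libraries of these data, so the differences between libraries given here are descriptions and carry no test. The table sets stomachs of genotype Fgf9LacZ/LacZ, called Fgf9_null here, against stomachs of genotype Fgf9LacZ/+, called Fgf9_het, with 2 samples each, numbered 2 and 3. Fgf9 encodes a secreted fibroblast growth factor. Both groups carry the LacZ allele, the titles shorten the Fgf9LacZ/+ group to WT, and the labels do not say whether a sample is 1 embryo or several.

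Immediate early promoters are bound in resting cells by factors that kinase cascades switch on, among them serum response factor with its ETS partners and the cAMP response element binding protein CREB. FOS and JUN proteins pair to form the AP-1 transcription factor, EGR1 and NR4A1 are further transcription factors, and DUSP1 and BTG2 restrain the response. Their messages are short lived. FGF receptors signal through the ERK kinases, which feed into these promoters.

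The same-numbered columns of the 2 genotype labels held nearly identical counts. Across the 10 genes the largest difference in reads was 5.003, for Jun, and the largest in percent was 0.482%, for Junb. Among genes with at least 10 reads in the pair, 59.1% (number 3) and 60.8% (number 2) had counts equal within 0.001 reads. Over all genes, chi-square over its degrees of freedom was 4.64 for number 3 and 4.46 for number 2, and this difference sat in a few genes. The 4 genes with an unadjusted p under 0.05 between the labels (Rn7s1, Rn7s6, Gm26461 and Gm19220) held 299869 more counts under the Fgf9_null label in number 3, where the column totals differed by 287551, and 276192 more in number 2, where they differed by 267360. With those genes, picked for their difference, left out, the statistic was 0.00385 for number 3 and 0.000792 for number 2, against 5.49 to 5.50 between columns of different number. Outside these 4 genes same-numbered columns therefore differed less than sampling noise allows, and they were counted as 1 sample, called library 3 and library 2, and which genotype either library had is not resolved by the labels. Fgf9 itself had 131 and 133 reads in columns 3 and 2 under the Fgf9_null label and again 131 and 133 under the Fgf9_het label. Column totals ran from 19269851 to 22713416 estimated counts, and a floor of 3 counts lay at 0.132 to 0.156 CPM (counts scaled to the column total). The stomach markers were present, with 9 of 9 stomach epithelium genes and 7 of 7 stomach mesenchyme genes reaching 1 CPM in each library.

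Most of the genes have few exons. In GENCODE M21 on GRCm38, the longest coding transcript had at most 4 exons in 9 of 10 genes, against 23.4% of the 14332 protein-coding genes reaching 1 CPM in each library. Jun, Junb and Ier2 have 1 exon, and Nr4a1 has 8. The median gene span was 4.70 kb for the 10 genes and 24.7 kb for the protein-coding genes. The span covers every annotated transcript of a gene, and it was 56.5 kb for Dusp1, 47.7 kb for Atf3 and 20.5 kb for Nr4a1. For each of these genes the RefSeq start site used below lies inside the span, so the transcript that starts there is shorter. Ier2 and Junb both lie on chromosome 8, 312 kb apart, and the other genes are spread over 7 chromosomes.

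Of the 10 genes, 8 matched a RefSeq promoter window (GRCm38.p6, 250 bases before to 50 after the start site), all but Egr1 and Ier2. The letters TGACG, the core of the cAMP response element to which CREB and ATF proteins bind, stood on either strand in 7 of 8 windows, against 20.8% of all 32851 windows and 23.6% of the 21263 protein-coding ones. These 7 sites are shown because they are what the promoters have in common. In each, capitals mark TGACG or its reverse complement, and the site nearest the start site is given, 5′ to 3′ on the gene's strand.
Fos chr12:85473812-85473840 (+): agttccgcccagTGACGtaggaagtccat
Fosb chr7:19310089-19310117 (-): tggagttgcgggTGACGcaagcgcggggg
Junb chr8:84978838-84978866 (-): gcttcctgacagTGACGcgagccgcctcc
Atf3 chr1:191183334-191183362 (-): ctggaagctattaatagcattaCGTCAgc
Nr4a1 chr15:101266794-101266822 (+): cccctctccatgCGTCAcggagcgcttaa
Dusp1 chr17:26508596-26508624 (-): tagggcgggTGACGTCAccgcccggtcac
Btg2 chr1:134079302-134079330 (-): tcccaataaTGACGTCAgtgagcgatgac

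The full palindrome TGACGTCA, which contains that core on both strands, occurred in the windows of Dusp1 and Btg2, 2 of 8, against 1.79% of all windows. Nr4a1 held 4 cores, at -233, -213, -69 and -40 from the start site. The letters TATAAA stood in the windows of Fos, at -33, and Junb, at 1, against 13.6% of all windows. The Junb position holds for the RefSeq start site only. On the - strand the GENCODE gene starts further downstream, at 84978718, where the stretch before the RefSeq site ends at 84978749. The AP-1 site TGANTCA, the ETS core CCGGAAG, the EGR site GCGTGGGCG and the CArG box of serum response factor had no match in the 8 windows, and they occurred in 7.81%, 8.86%, 0.612% and 1.63% of all windows. Sequence further than 250 bases before the start site was not searched, nor were the promoters of Egr1 and Ier2. The absence therefore holds for these windows only and does not show that the genes lack such sites. The 250 bases before the start site are given for Fos and Btg2, so that their sites can be read in context. The ratios of library 3 over library 2 were 1.73 for Fos and 0.979 for Btg2. Both windows hold the core, and a link between sites and levels was not tested. Capitals mark TGACG, its reverse complement and TATAAA.
Fos chr12:85473640-85473889 (+): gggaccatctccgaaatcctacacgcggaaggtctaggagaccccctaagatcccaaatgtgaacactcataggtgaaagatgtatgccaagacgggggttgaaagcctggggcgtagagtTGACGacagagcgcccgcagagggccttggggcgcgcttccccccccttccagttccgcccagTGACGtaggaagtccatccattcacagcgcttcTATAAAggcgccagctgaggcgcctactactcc
Btg2 chr1:134079156-134079405 (-): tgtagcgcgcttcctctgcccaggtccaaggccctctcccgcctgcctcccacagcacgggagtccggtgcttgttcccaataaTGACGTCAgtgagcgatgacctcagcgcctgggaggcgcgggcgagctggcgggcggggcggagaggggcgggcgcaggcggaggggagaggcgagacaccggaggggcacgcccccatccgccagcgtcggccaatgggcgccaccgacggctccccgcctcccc

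**Figure D1:**
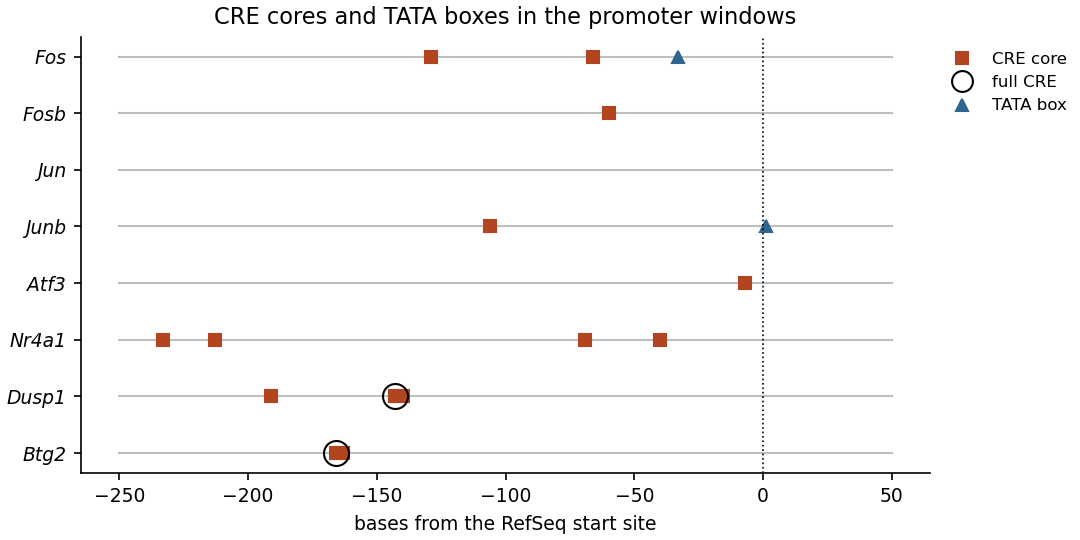
Positions of the core TGACG on either strand (squares), the full palindrome (open circles) and TATAAA (triangles) along 8 promoter windows, in bases from the RefSeq start site at the dotted line. Of the 8 windows, 7 hold that core, Nr4a1 holds 4 and the Jun window holds neither motif.

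A second sequence feature was looked for at the other end of the message. The AU-rich nonamer ATTTATTTA, a known signal for rapid decay, occurred once each in the 3′ untranslated regions of Fos and Dusp1, 2 of 10 genes, against 6.69% of 14222 expressed coding genes. The stretches around both copies are shown with the nonamer in capitals.
Fos chr12:85477103-85477127 (+): tgttttcaATTTATTTAttaagatg
Dusp1 chr17:26506159-26506183 (-): tggtccttATTTATTTAacaccccc

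The stated comparison, Fgf9_null against Fgf9_het, called none of the 10 genes. At an adjusted p under 0.05, 0 of 19987 genes (0%) passed in edgeR, 4 had an unadjusted p under 0.05, none of them immediate early, and DESeq2 called 3. The log2 fold of Fgf9_null over Fgf9_het lay between -0.00266 for Junb and 0.000263 for Atf3, each at an edgeR adjusted p of 1. A standard error was derived as the absolute log2 fold over the square root of the edgeR F statistic. It was 0.718 for Fosb, 0.562 for Egr1, 0.448 for Fos and 0.0200 for Btg2. For folds this near 0 such a value is rough, and DESeq2 reported 0.877, 0.698, 0.564 and 0.106 for these genes. Since each label holds the same pair of libraries, both fits set each library against itself and measure no effect of Fgf9.

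The libraries differed from each other. Of the 10 genes, 9 were higher in library 3, where 45.8% of 16712 genes reaching 1 CPM in each library were, and 1 was lower, where 54.2% were. In that direction 7 exceeded a ratio of 5 to 4 (5.18% of all genes did), 4 were past 1.5-fold (1.36%) and 2 past 2-fold (0.203%), while none was lower by a ratio of 4 to 5 (9.46%). The rule used this contrast, so nothing is read from these shares. Summed over the 10 genes, the level was 885 CPM in library 3 against 654 CPM in library 2, a ratio of 1.35 with an exact 95% binomial interval of 1.32 to 1.38 that covers counting error only. The median ratio was 1.31 for the 10 genes and 0.989 for all 16712 genes. With 1 library on each side the difference has no replicate check, and in bulk tissue fewer expressing cells and less RNA per cell cannot be told apart.

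**Figure D2:**
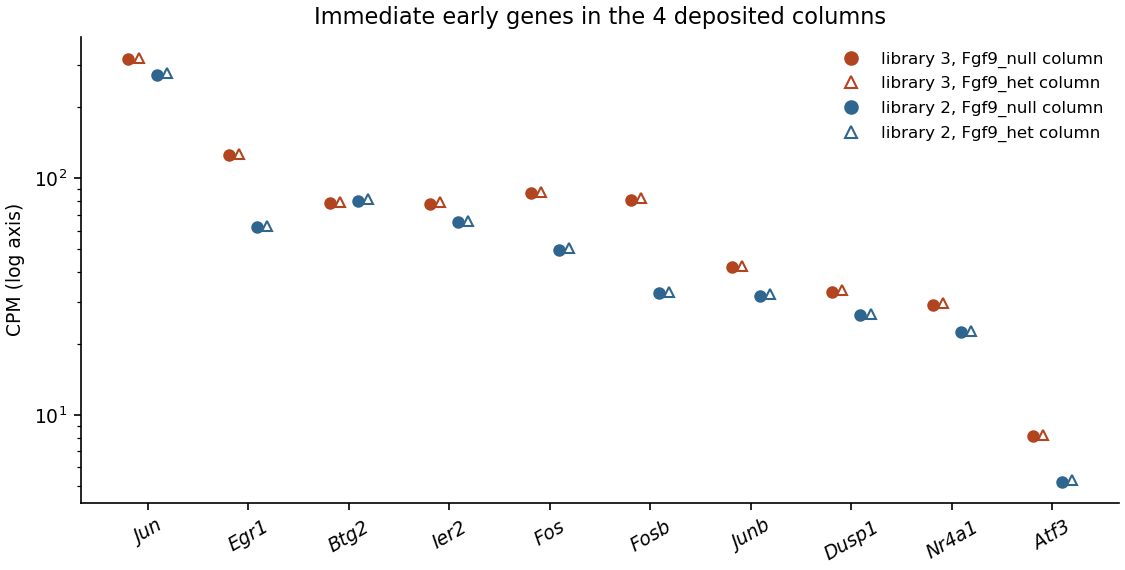
Level of each gene in CPM on a log axis, in order of mean level, with library 3 in red and library 2 in blue and the Fgf9_null column (circles) beside the Fgf9_het column (open triangles) of each library. Same-numbered columns nearly coincide, and library 3 lies above library 2 for every gene but Btg2.

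Among the FOS genes, Fosb stood furthest apart. Fosb (ENSMUSG00000003545, chr7:19302696-19310051, - strand), which encodes an AP-1 subunit with a strong activation domain, had 1837 and 1840 reads in library 3 (Fgf9_null and Fgf9_het columns), against 639 and 639 reads in library 2. The levels were 81.5 and 32.9 CPM, a ratio of 2.47 (interval 2.26 to 2.71). No other of the 8068 genes reaching 20 CPM in each library had a higher ratio. Fos (ENSMUSG00000021250, chr12:85473890-85477273, + strand), the prototype of the class, had 1965 and 1966 reads in library 3, against 975 and 975 in library 2. Its levels were 87.1 and 50.3 CPM, a ratio of 1.73 (1.60 to 1.87), eighth in that order.

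Fosl2, a FOS relative with slower kinetics, did not share this pattern and had 243 CPM in library 3 against 254 CPM in library 2, a ratio of 0.954 (0.918 to 0.992). Fosl1 was near the floor, with 3.24 and 4.52 reads and a ratio interval of 0.0801 to 2.65, too wide to place it. Per kilobase of annotated exon, Fos made up 49.2% of the summed FOS family level in library 3 and 40.3% in library 2, Fosb 17.3% and 9.95%, and Fosl2 33.3% and 49.5%. Per kilobase, the leading FOS gene was Fos in library 3 and Fosl2 in library 2. These shares, like those of the other families, depend on the length used and were not recomputed with another. With the longest coding transcript as the length, Fosb had 21.5 CPM per kb in library 3 and 8.71 in library 2, in place of 13.0 and 5.28.

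The JUN genes, whose products pair with FOS proteins, varied less. Jun (ENSMUSG00000052684, chr4:95049034-95052222, - strand) had 7214 and 7219 reads in library 3, against 5349 and 5353 in library 2, which gave 320 and 276 CPM and a ratio of 1.16 (1.12 to 1.20). Its ratio was the smallest among the 9 genes that were higher in library 3. Junb (ENSMUSG00000052837, chr8:84974484-84978718, - strand), a JUN relative with weaker activating capacity, had 953 and 953 reads in library 3, against 620 and 623 in library 2. That was 42.2 and 32.0 CPM, a ratio of 1.32 (1.19 to 1.46). Jund, the broadly and constitutively expressed JUN gene, had 199 and 190 CPM, a ratio of 1.05 (1.00 to 1.09). Per kilobase, Jund made up 50.1% of the JUN family level in library 3 and 53.2% in library 2, Jun 42.2% and 40.3%, and Junb 7.72% and 6.49%. The summed FOS level was 0.316 of the summed JUN level in library 3 and 0.247 of it in library 2, both per kilobase.

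Jun shares 232 exon bases with the antisense gene Junos, and Junb shares 173 with Prdx2 on the other strand. The strand setting of the counting is not given in the sources used here, so some reads of these pairs cannot be told apart. Prdx2 had 132 CPM in library 3 against 134 CPM in library 2, and Junos 3.66 and 3.48 CPM.

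**Figure D3:**
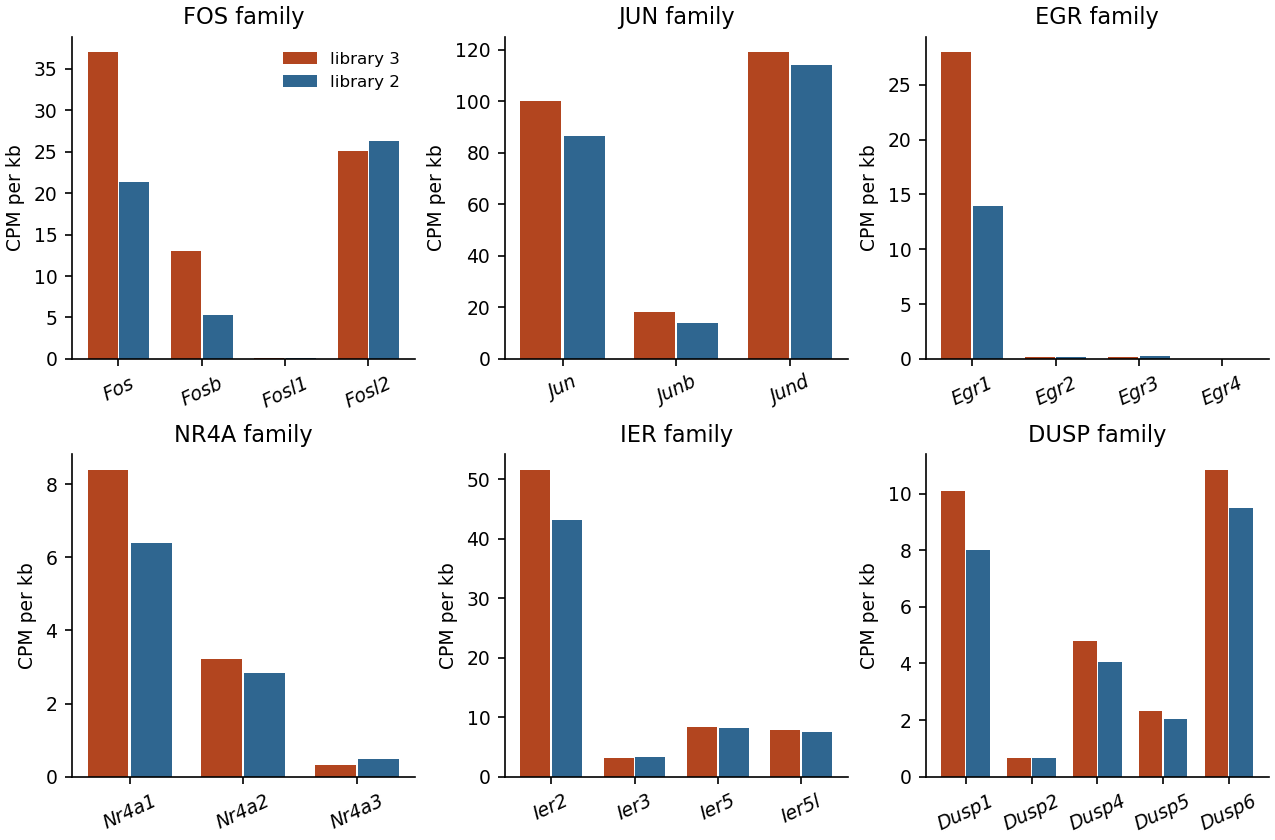
Level per kilobase of annotated exon for the genes of 6 families, with library 3 in red and library 2 in blue, 1 library each and no error bars. As ratios of library 3 over library 2, Fosb (2.47), Egr1 (2.01) and Fos (1.73) are furthest from level, while Fosl2 (0.954) and Jund (1.05) are nearly level.

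Atf3 (ENSMUSG00000026628, chr1:191170296-191218039, - strand), a stress-induced factor of the ATF family that pairs with JUN proteins, rested on the fewest reads. It had 185 and 185 reads in library 3, against 102 and 102 in library 2, or 8.20 and 5.26 CPM. The ratio was 1.56 (1.22 to 2.01), and the wide interval reflects the low count. Its relative Jdp2, a repressor of AP-1, had 12.6 CPM in library 3 against 12.4 CPM in library 2, a ratio of 1.02 (0.857 to 1.22).

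Egr1 (ENSMUSG00000038418), a zinc finger factor induced through ERK and serum response factor, had 2830 and 2832 reads in library 3, against 1212 and 1212 in library 2. The levels were 125 and 62.5 CPM, a ratio of 2.01 (1.88 to 2.15), the third highest of the 8068 genes. Egr1 held nearly all of the EGR family level, 98.8% in library 3 and 97.1% in library 2 per kilobase. Egr2 had 10 and 13 reads and Egr3 had 19 and 19, with ratio intervals that span 1, and Egr4 had 1 read in library 3 and 0 in library 2. The EGR corepressor genes Nab1 and Nab2 had 30.2 and 33.2 CPM in library 3 and 30.6 and 32.0 CPM in library 2.

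Nr4a1 (ENSMUSG00000023034, chr15:101254269-101274795, + strand), an orphan nuclear receptor, had 664 and 666 reads in library 3, against 436 and 436 in library 2. That was 29.5 and 22.5 CPM, a ratio of 1.31 (1.16 to 1.48). Nr4a2 had 13.1 and 11.55 CPM, a ratio of 1.13 with an interval of 0.948 to 1.35. Nr4a3 rested on 44 reads in library 3 and 57 in library 2, or 1.95 and 2.94 CPM. Its ratio was 0.664, with an interval of 0.437 to 1.001 that just spans 1. Ier2 (ENSMUSG00000053560, chr8:84661331-84662852, - strand), a nuclear protein gene of the immediate early response, had 1771 and 1775 reads in library 3, against 1273 and 1274 in library 2. Its levels were 78.6 and 65.6 CPM, a ratio of 1.20 (1.11 to 1.29). The relatives Ier3, Ier5 and Ier5l had ratios of 0.912, 1.01 and 1.04, each with an interval that spans 1.

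The 2 genes that restrain the response differed from each other. Dusp1 (ENSMUSG00000024190, chr17:26505590-26562128, - strand), a phosphatase that inactivates p38, JNK and ERK, had 753 and 753 reads in library 3, against 514 and 515 in library 2. Its levels were 33.4 and 26.5 CPM, a ratio of 1.26 (1.12 to 1.41). Dusp6, the cytosolic ERK phosphatase, had 33.9 and 29.7 CPM, a ratio of 1.14 (1.02 to 1.28). Btg2 (ENSMUSG00000020423, chr1:134075170-134079120, - strand), an antiproliferative gene that is also a p53 target, was the exception among the 10 genes. It had 1783 and 1784 reads in library 3, against 1566 and 1567 in library 2, which after scaling was 79.0 and 80.7 CPM, a ratio of 0.979 (0.915 to 1.05). Its relative Btg1 had 105 CPM in library 3 against 115 CPM in library 2, a ratio of 0.910 (0.859 to 0.965).

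**Figure D4:**
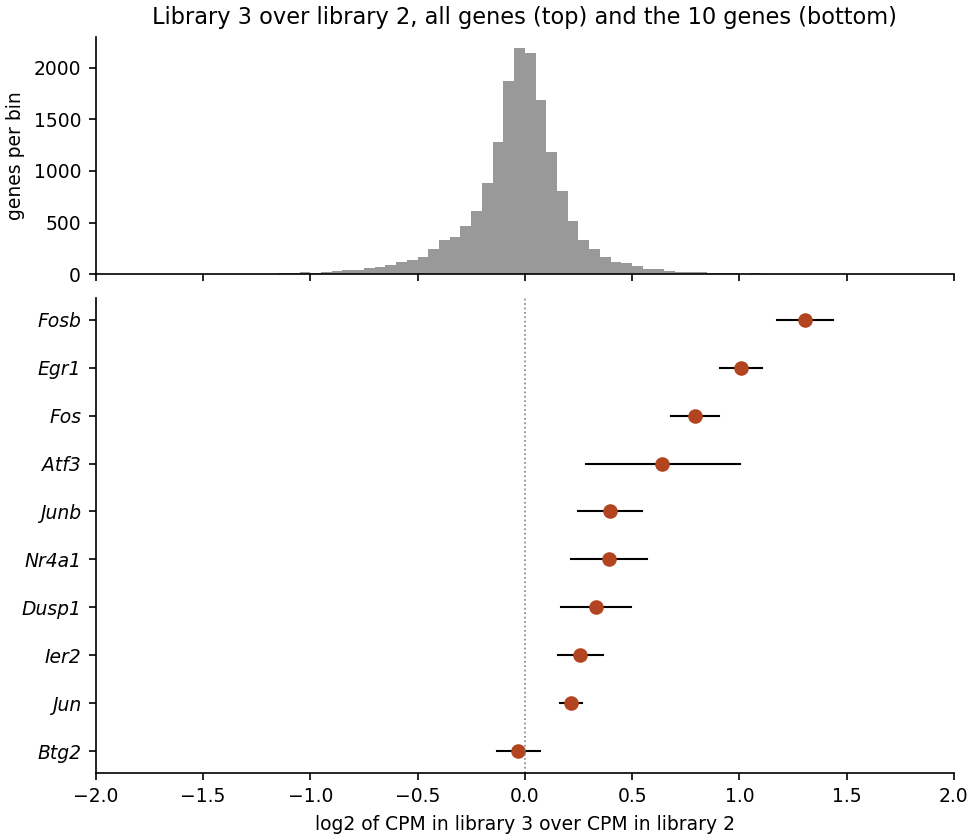
Log2 of CPM in library 3 over library 2 for 16712 genes (top, genes per bin of the histogram) and for the 10 genes (bottom, points with exact 95% binomial intervals for counting error). The 10 genes run from Fosb at 1.31 to Btg2 at -0.03, and the median of all genes is -0.02.

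In order of ratio, neighbours could be separated by counting error at only 3 places. The intervals did not overlap between Fosb and Egr1, between Egr1 and Fos, or between Jun and Btg2. The 7 genes Fos, Atf3, Junb, Nr4a1, Dusp1, Ier2 and Jun formed a chain in which each interval overlapped the next. Fos joined it only through the wide interval of Atf3. The Fos interval, 1.60 to 1.87, lay above those of Junb, Nr4a1, Dusp1, Ier2 and Jun. Over the libraries, Fosb averaged 57.2 ± 34.3 CPM, Egr1 94.0 ± 44.5 CPM, Fos 68.7 ± 26.0 CPM and Btg2 79.9 ± 1.21 CPM (SD, n = 2 libraries).

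Per kilobase of annotated exon, which allows levels of different genes to be compared, Jun led with 100.3 CPM per kb in library 3 and 86.5 in library 2. Ier2 followed with 51.6 and 43.1 CPM per kb, and neither overlapped its neighbour across libraries. Fos had 37.0 and 21.4 CPM per kb, a range that contained Btg2 at 28.8 and 29.4. Egr1 had 28.0 and 13.9, a range that overlapped that of Junb at 18.35 and 13.9. Fosb had 13.0 and 5.28 and overlapped Dusp1 at 10.1 and 8.01, which overlapped Nr4a1 at 8.40 and 6.40, and Atf3 was lowest with 3.81 and 2.44. With the longest coding transcript as the length, the order of mean levels was the same.

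The wider immediate early response was surveyed with a longer list. Of 45 further immediate early genes, 40 reached 1 CPM in both libraries, of which 28 were higher in library 3 and 12 lower, where 45.8% of all genes were higher. Their median ratio was 1.05, beside 0.989 for all genes and 1.31 for the 10 genes, and none was past 1.5-fold higher. Because the 10 genes were selected on this contrast, nothing is read from their higher median. With TMM or RLE factors 30 or 32 of the 40 were higher. These factors also raised the median ratio of all genes, to 1.002 and 1.009. The share of all genes higher was not computed with them, so the 45.8% is no background for these counts. Zfp36, whose product binds AU-rich elements and promotes decay of such messages, had 62.2 CPM in library 3 against 43.5 CPM in library 2, a ratio of 1.43. Socs3, a feedback inhibitor of cytokine receptors, and Gadd45a, a stress and p53 target, were picked out after their values were seen, with ratios of 1.42 and 1.41. Zfp36l1, a relative of Zfp36, had 306 and 301 CPM. Ccn1 and Ccn2, targets of serum response factor and YAP, had ratios of 1.22 and 1.06 and were also picked out afterwards.

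For the regulators of these promoters only RNA levels were measured, not activity. Of 23 kinase and transcription factor genes upstream, 9 were higher in library 3 and 14 lower, with a median ratio of 0.986 and a range of 0.798 to 1.15. Elk3 was the highest, with a ratio of 1.15, and Srf, which encodes serum response factor, had 1.11. Crem, a CREB relative, was furthest from level with 5.01 and 6.27 CPM, a ratio of 0.798. Of 11 ERK feedback and ETS target genes, 7 were higher in library 3, with a median ratio of 1.01 and a range of 0.949 to 1.18. Ccnd1 (cyclin D1) had 126 and 116 CPM. Of 12 heat shock genes, 10 were higher in library 3, with a median of 1.06, and Hspa8, a constitutive chaperone, had 1088 CPM in library 3 against 849 CPM in library 2. Of 9 hypoxia and glycolysis genes at 1 CPM or more, 7 were higher in library 3, with a median of 1.08. Of 12 partner and corepressor genes at that level, 7 were, with a median of 1.01.

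**Figure D5:**
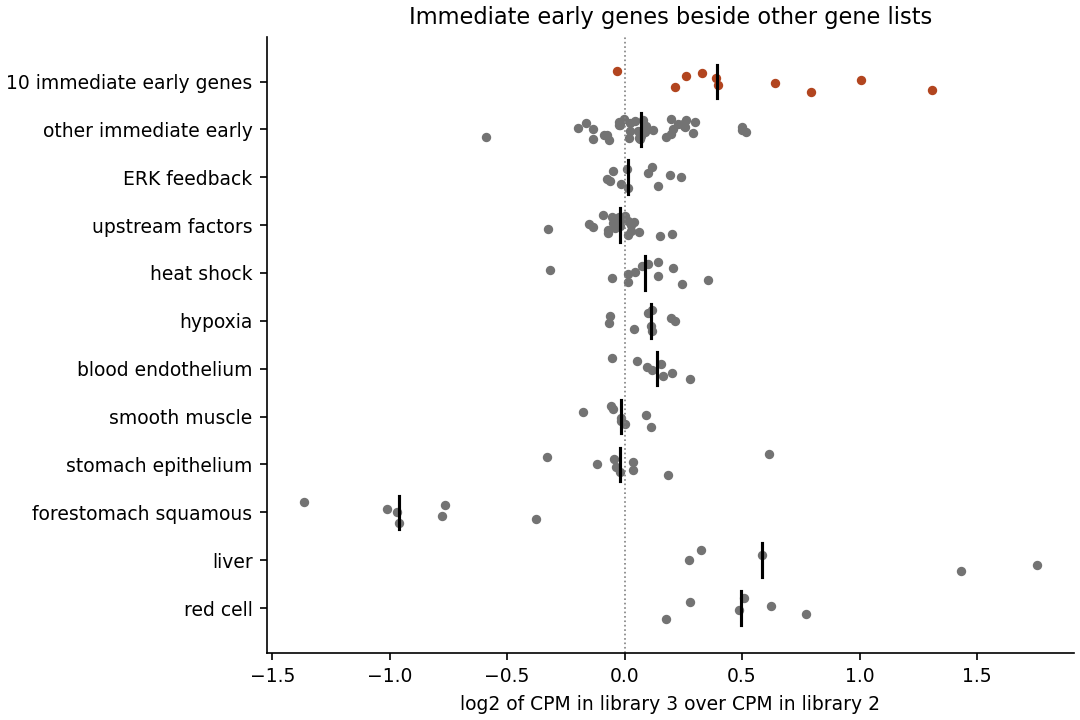
Log2 of CPM in library 3 over library 2 for each gene reaching 1 CPM in each library, by list, with the median as a bar. The median of the 10 immediate early genes lies right of that of every list drawn except the liver and red cell markers. The 10 genes were selected on this contrast, so nothing is read from that place. The forestomach squamous markers lie left of 0.

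Markers of several cell types moved between the same libraries. Forestomach squamous markers summed to 352 CPM in library 3 against 656 CPM in library 2, and 7 of 7 genes at 1 CPM or more were lower in library 3, by a median ratio of 0.513. Liver markers summed to 65.4 and 39.9 CPM, with 5 of 5 such genes higher in library 3 and a median ratio just under 1.5. Red cell markers summed to 1584 and 1149 CPM, with 6 of 6 higher and a median of 1.41. Blood endothelium markers summed to 373 and 330 CPM, with 7 of 8 higher and a median of 1.10. Skeletal muscle markers summed to 24.3 and 32.8 CPM, with 5 of 5 lower in library 3 and a median of 0.824. Macrophage markers (109 and 107 CPM), mesothelium markers (150 and 161 CPM), enteric neuron and glia markers (434 and 439 CPM) and stomach mesenchyme markers (9389 and 9697 CPM) had medians of 1.03, 0.947, 0.984 and 1.07. Smooth muscle markers summed to 6207 and 6007 CPM, with 3 of 8 higher in library 3, 5 lower and a median of 0.990. Stomach epithelium markers summed to 6312 and 6666 CPM, with 4 of 9 higher, 5 lower and a median of 0.988. Atp4a was furthest from level in that list, with 35.5 and 23.2 CPM, a ratio of 1.53. No marker in any of these lists was at 0 in both libraries, and their part in the immediate early difference was not tested.

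The genes with the most similar pattern were taken as the 8 protein-coding genes with the highest ratio reaching 20 CPM in each library. Beside Fosb, Egr1 and Fos they were Sprr2a2 (319 CPM in library 3 against 139 CPM in library 2), Gm10260 (156 and 78.7), and the histone genes Hist1h4m (161 and 82.1), Hist1h2an (57.2 and 31.3) and H2bc15 (143 and 82.7). Likeness here rests on 1 ratio over 2 libraries. The Sprr2 and histone genes belong to families of near-identical copies, so their counts depend on how reads were divided among them.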

How the data were processed

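RNA of whole stomach was freed of ribosomal RNA with RNase H, copied with random hexamers and read from both ends, according to the extract protocol in the labels. Tools and builds listed by the submitters' processing notes, without roles, are Salmon 1.8.0, Trimmomatic 0.33, FastQC 0.10, edgeR, GRCm38 and mm10. The authors deposited estimated counts per gene, not scaled to depth. Columns were matched to samples by title, and 2 columns without a name entered no computation. The sources used here leave it unresolved whether each name stands over its own column.

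CPM used the column total, and a library is the mean of its same-numbered columns, whose deviations correlated at 0.999 across genes, so the numbers pair columns of 1 library. Intervals are exact (Clopper-Pearson) and cover counting error only. Counts of the 4 columns were rounded and compared by label in R 4.3.3 with edgeR 4.0.16 (quasi-likelihood, TMM factors, filterByExpr, Benjamini-Hochberg adjustment, threshold 0.05), with DESeq2 1.42.0 as an alternative, and the code was tested on simulated data. Such p-values reflect the spread among columns, which may be technical. Annotation was GENCODE M21, which held 50870 of 51098 identifiers. The 10 genes and all lists were chosen with earlier results of these data known. The naming rule covered the 10 genes, from each of 17 lists the 2 genes of highest CPM and the 1 furthest from level at 5 CPM or more, and the 8 genes most like the 10, and the text gives some of these, while some named by the rule are not reported here. Fgf9, family relatives, overlapping genes, Nab1, Nab2, Elk3 and Srf were named outside that rule. Other settings are in the closing section.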

Additional observations from a re-analysis of the deposited data

How the results depend on the processing

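The count of 9 genes higher in library 3 held under each of 5 other scalings or column choices, and the summed ratio lay between 1.34 and 1.38. The column choices, Fgf9_null only and Fgf9_het only, hold the same 2 libraries and could hardly differ. The scalings shifted all ratios by nearly the same factor. Each of the 10 single ratios moved by less than its counting interval, with Fosb between 2.46 and 2.52 and Btg2 between 0.973 and 0.999. The mean summed level of 769 CPM became 939 CPM without structured, ribosomal and mitochondrial RNA in the library size. The share of all genes above a ratio of 5 to 4 was 5.18%, and 1.72% among genes at 10 CPM or more, and the cause was not tested. Taking the longest transcript as the length, a choice made after seeing the data, moved 4 of 10 levels per kilobase by more than 1 SD, with Fosb at 15.1 in place of 9.16 CPM per kb. Between the labels, edgeR called 0 genes with RLE factors, with no filter and with a stricter one, DESeq2 called 3, and leaving out 1 column gave 1 to 2, where the single column left is taken to be as variable as the others. A fit with the replicate block, in which both columns of a pair are 1 library, called 6. None of these calls was among the 10 genes. Depth limits Atf3, Egr2, Egr3, Egr4 and Fosl1, and 2 libraries limit every comparison.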
